A study of Homo sapiens with 21 samples.

Results

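The small nucleolar RNA (snoRNA) and small Cajal body RNA (scaRNA) genes were the rows of the count table whose NCBI symbols, matched by Entrez ID, begin with SNORD, SNORA or SCARNA and a number. There were 412 of them among 28395 genes: 280 SNORD, 108 SNORA and 24 SCARNA genes. Of the 412, 90 had 0 counts in every library, 322 had a count in some library and 147 (88 SNORD, 51 SNORA and 8 SCARNA genes) passed the filter on low counts and were tested among 16036 genes. The other 265 were not tested.

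RNA was taken from Hs578T cells, a triple-negative breast cancer line, 8 h after treatment, in 7 groups of 3 libraries each. The groups were DMSO (the control), THZ531 at 0.1 μM, lapatinib at 3.16 μM, nilotinib at 1 μM, lapatinib at 3.16 μM with THZ531 at 0.1 μM, nilotinib at 1 μM with THZ531 at 0.1 μM, and THZ531 at 1 μM. THZ531 inhibits CDK12 and CDK13, kinases of the tail of RNA polymerase II, lapatinib inhibits the receptor kinases EGFR and HER2, and nilotinib inhibits ABL and related kinases. The 3 agents given alone at the doses of the combinations are called the component treatments here. Per the study, the libraries of a group come from independent experiments. The mesenchymal markers of the line were high in all libraries (VIM 6971 to 8910 and SPARC 2852 to 4095 CPM, counts relative to the total of the library) and the luminal and epithelial genes ESR1, PGR, CDH1 and EPCAM were at most 0.545 CPM.

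Box C/D snoRNAs (SNORD) guide the 2′-O-methylation of ribosomal RNA and box H/ACA snoRNAs (SNORA) guide its pseudouridylation, and scaRNAs do the same for spliceosomal RNAs. Most human snoRNAs lie in introns of host genes, many of which code for ribosomal proteins or are non-coding snoRNA host genes (SNHG), and are cut from the spliced-out intron. A few, U3 (SNORD3), U13 (SNORD13) and SCARNA2 among them, are transcribed from promoters of their own. Mature snoRNAs carry no poly(A) tail. The libraries here were poly(A)-selected and unstranded, so counts over these genes are reads from polyadenylated or carried-over RNA that covers the gene, host transcripts included, and do not measure the mature snoRNA. Which of these RNAs the reads came from was not tested. Of the 147 tested genes, 73 are shorter than the 100-base reads, 114 overlap an annotated exon of another gene and 9 have a gene on the opposite strand. As the libraries come from bulk RNA, fewer cells and less RNA per cell cannot be told apart.

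The sequences of 7 members that the results turn on follow, read 5′ to 3′ from GRCh38 at the RefSeq coordinates. They are 4 box C/D genes that rose, 1 box H/ACA gene that rose and 2 box C/D genes that fell. Capitals mark the C box core TGATGA and the last D box CTGA of SNORD genes, or the ACA 3 bases from the end of the SNORA gene. SNORD3A is at chr17:19188016-19188232 (plus strand), SNORD11 at chr2:202293051-202293134 (plus) and SNORD12B at chr20:49280313-49280415 (plus). SNORD45C is at chr1:75787072-75787149 (plus), SNORD78 at chr1:173865622-173865686 (minus), SNORD88B at chr19:50799029-50799125 (minus) and SNORA50C at chr17:64146339-64146471 (plus).
SNORD3A: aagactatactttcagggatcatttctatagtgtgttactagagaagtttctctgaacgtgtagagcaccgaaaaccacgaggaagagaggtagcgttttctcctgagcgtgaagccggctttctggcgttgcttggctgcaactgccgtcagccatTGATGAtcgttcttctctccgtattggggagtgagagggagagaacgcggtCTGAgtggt
SNORD11: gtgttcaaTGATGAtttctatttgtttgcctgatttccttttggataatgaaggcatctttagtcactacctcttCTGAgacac
SNORD12B: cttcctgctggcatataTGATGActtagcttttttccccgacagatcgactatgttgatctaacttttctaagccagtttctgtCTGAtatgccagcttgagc
SNORD45C: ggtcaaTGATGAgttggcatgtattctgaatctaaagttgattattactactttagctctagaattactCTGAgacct
SNORD78: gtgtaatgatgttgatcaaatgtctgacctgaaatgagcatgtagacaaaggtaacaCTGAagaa
SNORD88B: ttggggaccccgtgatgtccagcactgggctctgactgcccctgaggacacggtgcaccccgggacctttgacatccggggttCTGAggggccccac
SNORA50C: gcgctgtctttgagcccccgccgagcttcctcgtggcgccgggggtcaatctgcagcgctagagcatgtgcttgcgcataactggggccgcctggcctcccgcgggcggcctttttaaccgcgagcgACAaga
TGATGA was found on the gene's strand in 77.5% of the 280 SNORD genes and in 3.7% of the 108 SNORA genes, and on the opposite strand in 1.43% and 2.78%. CTGA was found in 98.2% of the SNORD and 47.2% of the SNORA genes on the gene's strand, and in 20.7% and 53.7% on the opposite strand. SNORD78 and SNORD88B held CTGA but no exact TGATGA. An ACA 3 bases from the end was found in 82.4% of the SNORA and 0.714% of the SNORD genes.

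The libraries held 97612207 to 112229052 counts each, of which the 412 genes took a small part. Summed over all members, DMSO libraries had 44.8 to 50.4 CPM, against 44.6 to 46.4 with 0.1 μM THZ531, 44.5 to 47.0 with lapatinib and 40.6 to 43.8 with nilotinib. The sum was 76.1 to 77.3 with lapatinib + THZ531, 67.0 to 70.9 with nilotinib + THZ531 and 69.6 to 76.3 with 1 μM THZ531. Nilotinib alone lay below DMSO without overlap (mean 42.5 against 47.2, 0.899-fold, exact two-sided permutation p = 0.1). The last 3 groups lay above DMSO without overlap, with means of 76.8, 69.1 and 71.8 against 47.2 (SD 0.617, 1.95, 3.86 and 2.88, n = 3 each), and the exact two-sided permutation test gave p = 0.1 in each, the smallest that 3 against 3 libraries allow. Only 19 of the 147 tested members had a mean of at least 50 counts per library, so single members carry wide errors.

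Neither 0.1 μM THZ531, lapatinib nor nilotinib alone gave a call among the 147 members. A gene was called with edgeR's quasi-likelihood test at a Benjamini-Hochberg adjusted p under 0.05 over all 16036 genes. At that limit with no limit on the fold, 0 members were called with 0.1 μM THZ531 (6.09% of all tested genes), 0 with lapatinib (0.312%) and 0 with nilotinib (0.343%), and DESeq2 also called 0 in each. At an unadjusted p under 0.05 there were 8, 7 and 13 members, of which 7, 7 and 12 were lower. The share of all tested genes at this unadjusted limit was not computed, so no direction is read from these counts. Median log2 fold changes of the members were 0.03, -0.10 and -0.23, against 0.01, -0.01 and 0.00 over all tested genes.

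In both combinations and at 1 μM THZ531, many members rose and few fell, while among all genes more fell than rose. At an adjusted p under 0.05 and a log2 fold change beyond 1, 46 members rose (31.3%, against 7.9% of all tested genes) and 2 fell (1.36%, against 21.3%) with lapatinib + THZ531. With nilotinib + THZ531, 40 rose (27.2%, against 6.54%) and 4 fell (2.72%, against 20.8%). With 1 μM THZ531, 47 rose (32%, against 5.77%) and 4 fell (2.72%, against 18.9%). The 3 comparisons share the DMSO libraries.

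With no fold limit the counts were 68 higher and 2 lower with lapatinib + THZ531, against 34.3% and 37.8% of all tested genes. They were 54 and 5 with nilotinib + THZ531, against 33.7% and 37.3%, and 68 and 5 with 1 μM THZ531, against 33.1% and 36.8%. The median log2 fold change of the members was 0.74, 0.57 and 0.64, while that of all tested genes was -0.01 in each of the 3 comparisons.

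The scale of these counts depends on the scaling. Under scaling to the 13 mitochondrially encoded mRNAs the median of all genes moved to -0.69, -0.63 and -0.55 and the members' median to 0.07, -0.05 and 0.10. The members called higher and lower were then 19 and 10 with lapatinib + THZ531, 17 and 8 with nilotinib + THZ531, and 20 and 9 with 1 μM THZ531. Under scaling to library size alone they were 28 and 5, 22 and 6, and 33 and 6. The members' median stood 0.75, 0.58 and 0.65 above that of all genes in the main analysis, and 0.76, 0.59 and 0.65 above it under the mitochondrial scaling. This scaling lowers every log2 fold change in a comparison by nearly the same amount, so rises smaller than these shifts, those of many host genes among them, change sign under it.

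Of the 147 members, 32 did not pass the same count filter in the 12 libraries of DMSO and the 3 component treatments. They entered the test with the help of the other libraries, a choice that favours members high there. Of these 32, 18, 20 and 19 were past the limits for a rise in the 3 comparisons (56.2%, 62.5% and 59.4%). That was near the share of the 622 genes that entered in the same way (59.3%, 55.9% and 55.9%). Among the 115 that did pass there, 28, 20 and 28 rose in the 3 comparisons (24.3%, 17.4% and 24.3%), against 5.83%, 4.54% and 3.74% of the 15414 genes that passed in the same way. Among the same 115, 2, 4 and 4 fell (1.74%, 3.48% and 3.48%), against 22.2%, 21.6% and 19.6% of those genes. The median log2 fold change of the 115 was 0.61, 0.47 and 0.54. A pass in the DMSO and component libraries can favour members that are low in the treatments, and the same holds for the 15414 genes. For the 32 other members, log2 fold changes are given as a description. Their p-values against DMSO, and those of their calls against 1 μM THZ531, are left out. The plot of all members by treatment shows both the shift and the long upper tail.

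**Figure D1:**
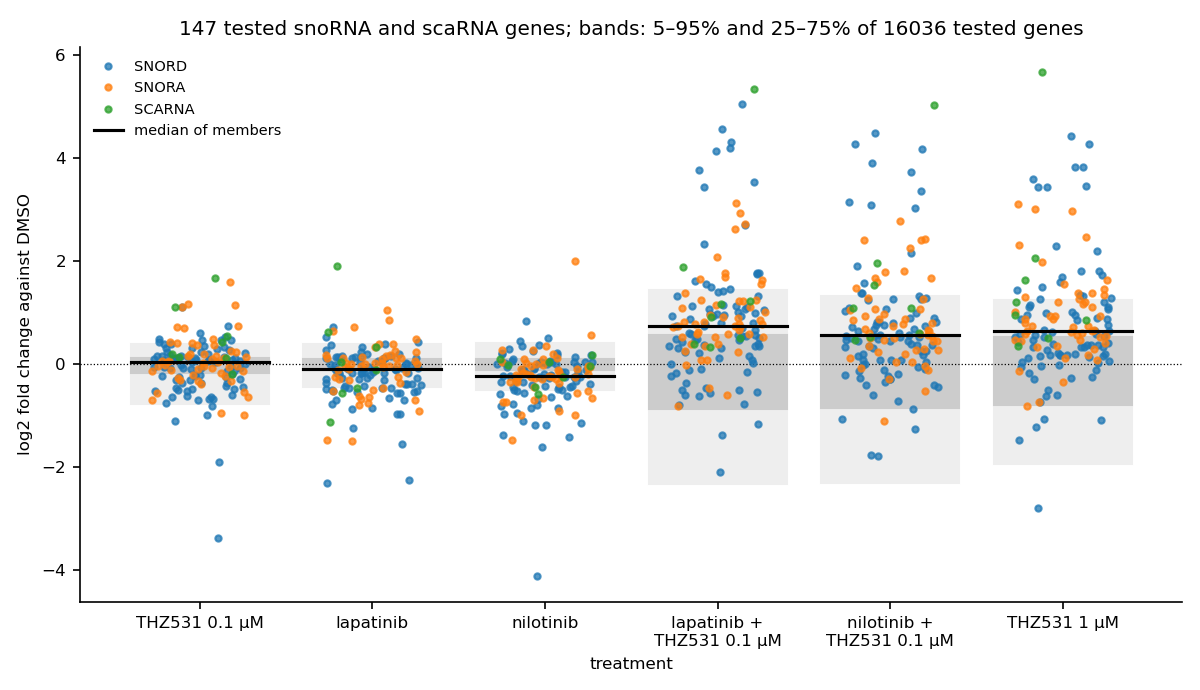
Log2 fold change against DMSO (y axis) of the 147 tested members in each of 6 treatments (x axis), 1 point per gene colored by class. Grey bands hold 5 to 95% and 25 to 75% of the 16036 tested genes and black lines are the members' medians, which were 0.03, -0.10 and -0.23 in the component treatments and 0.74, 0.57 and 0.64 in the last 3.

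The members without a host gene in the table were 12: the 5 U3 copies, SNORD13, SCARNA2, SNORA7B, SNORA50C and SNORD104 (both in SNHG25, which was not analysed here), SNORD116-4 and SNORD116-21 (both in SNHG14, not analysed here). Of these, 8 (4 of the U3 copies, SNORD13, SCARNA2, SNORA7B and SNORD116-21) belong to the 32 that passed the filter only through treated libraries, so the class as a whole was in large part selected for being high. Of the remaining 4, SNORD3A, SNORA50C, SNORD104 and SNORD116-4, 3, 3 and 4 rose past the fold limit in the 3 comparisons. Of the 109 members with a tested host that passed in the DMSO and component libraries, 24, 17 and 23 rose and 2, 4 and 4 fell past the same limit, with medians of 0.58, 0.46 and 0.52. Among all 15414 genes that passed in those libraries, 5.83%, 4.54% and 3.74% rose and 22.2%, 21.6% and 19.6% fell.

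U3 is needed for the early cleavages that release 18S ribosomal RNA. SNORD3A had 25, 46 and 41 counts in the DMSO libraries, 44, 35 and 34 with 0.1 μM THZ531, 21, 48 and 14 with lapatinib and 15, 50 and 33 with nilotinib. It had 511, 506 and 505 counts with lapatinib + THZ531, 403, 366 and 384 with nilotinib + THZ531 and 642, 639 and 456 with 1 μM THZ531. All 9 of these libraries lay far above the 12 others, which overlapped with each other. The log2 fold change was 4.14 ± 0.32 (SE, edgeR adjusted p = 3.96e-10), 3.73 ± 0.31 (adjusted p = 1.96e-09) and 4.27 ± 0.32 (adjusted p = 3.72e-10).

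The other 4 U3 copies, SNORD3B-1, SNORD3B-2, SNORD3C and SNORD3D, had log2 fold changes from 2.71 to 4.56, 3.04 to 4.27 and 3.44 to 4.44. All 4 passed the filter only through treated libraries. SNORD3D had 6, 4 and 1 counts in DMSO and 70, 68 and 67, then 59, 54 and 57, then 80, 67 and 50 counts in the 3 treatments. The copies are nearly identical over their 217 bases. SNORD3A differs from SNORD3B-1, SNORD3B-2 and SNORD3C by 1 base each and from SNORD3D by 3, and SNORD3B-1 and SNORD3B-2 do not differ. Of the 118 stretches of 100 bases, the read length, in SNORD3A, 48 (40.7%) also occur in another copy, as do all 118 of SNORD3B-1. How reads were shared among the copies is therefore uncertain and the copies are not independent measurements.

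SNORD13, the U13 snoRNA that takes part in 18S ribosomal RNA maturation, had 6, 4 and 7 counts in DMSO and at most 4 in any library of a component treatment. It had 91, 81 and 93 counts with lapatinib + THZ531, 65, 74 and 61 with nilotinib + THZ531 and 52, 80 and 65 with 1 μM THZ531. There was no overlap with the other libraries, and separation from DMSO was part of the rule that named SNORD13. The log2 fold change was 4.32 ± 0.41, 3.90 ± 0.41 and 3.83 ± 0.41 (SE), given as a description since SNORD13 passed the filter only through these libraries.

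SCARNA2, a guide for modification of the U2 spliceosomal RNA, had 0, 2 and 0 counts in DMSO and 0 to 4 in the component-treatment libraries. It had 15, 19 and 41 counts, then 14, 27 and 20, then 40, 29 and 29 in the 3 treatments. The summed counts (75, 61 and 98 against 2) were scaled to library size after TMM scaling. The ratios to DMSO were then 49.1 (exact 95% interval 13.1 to 413.2), 39.5 (10.5 to 333.4) and 61.6 (16.6 to 516.0). These intervals cover counting error only. SCARNA2, too, passed the filter only through these libraries.

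SNORA50C and SNORD104 lie side by side in SNHG25. SNORA50C had 28, 17 and 25 counts in DMSO and 123, 115 and 115, then 112, 95 and 85, then 72, 100 and 104 in the 3 treatments. Its log2 fold change was 2.72 ± 0.24, 2.43 ± 0.24 and 2.31 ± 0.24 (edgeR adjusted p = 3.72e-09, 2.21e-08 and 5.51e-08). SNORD104 rose by less, with log2 fold changes of 1.40 ± 0.19, 1.07 ± 0.19 and 1.20 ± 0.19. SNORA50C and SNORD104 are within the same host, so reads from 1 transcript could cover both.

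**Figure D2:**
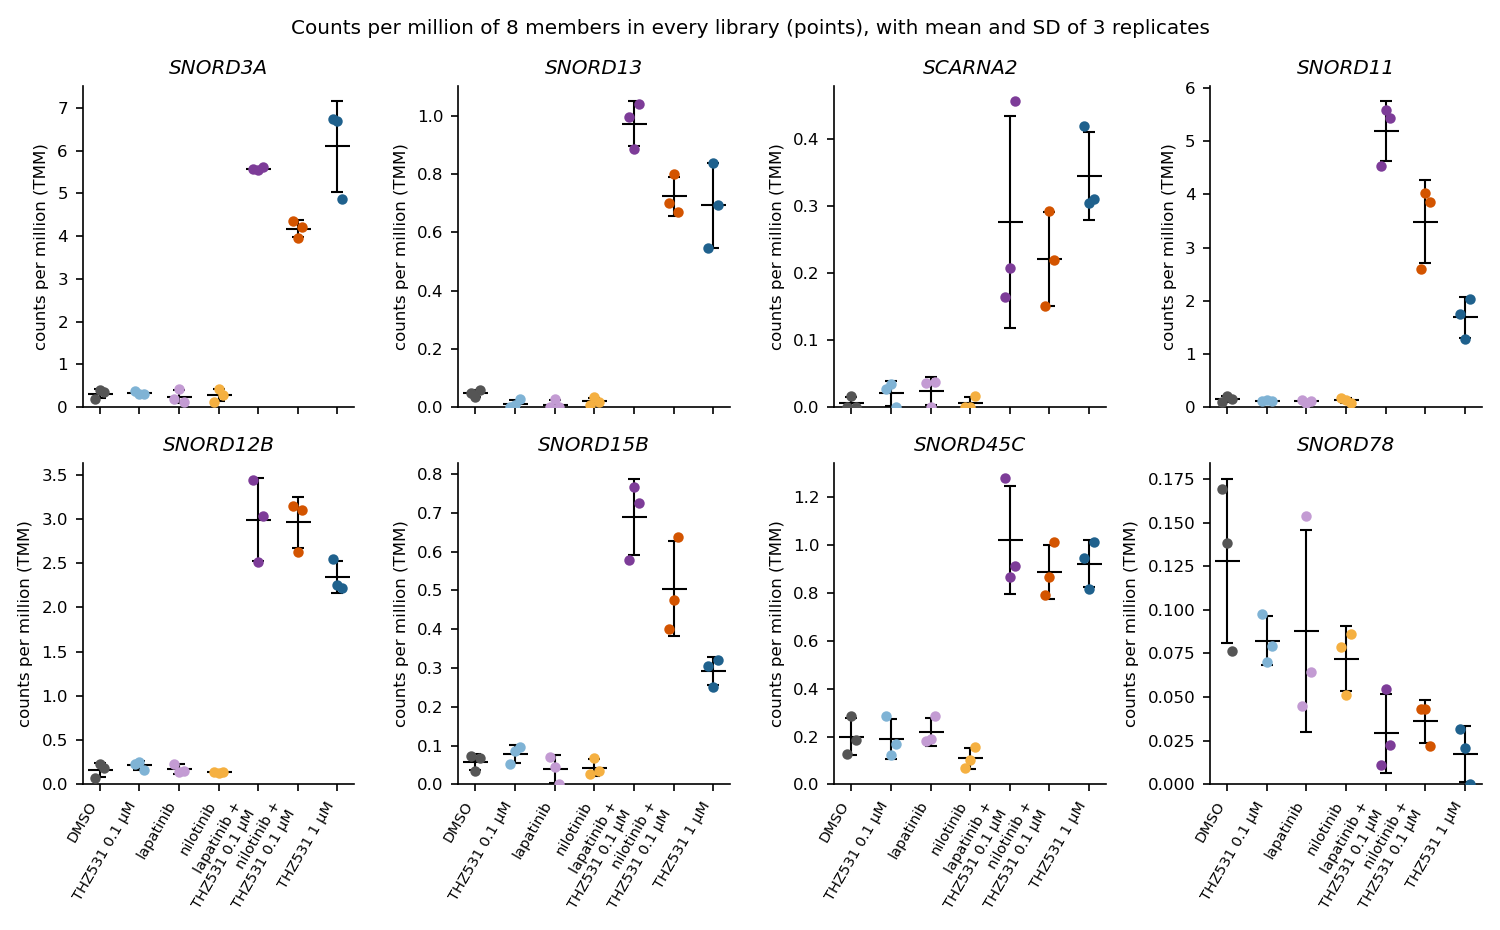
CPM after TMM scaling (y axes, each from 0) of 8 members in the 21 libraries, as points by group, with the mean and SD of 3 replicates. The 7 members other than SNORD78 lay higher in all 9 libraries of the last 3 groups than in the 12 others, while SNORD78 was lower in the last 3 groups than in DMSO. Separation from DMSO was part of the rule that named SNORD13, SCARNA2, SNORD12B and SNORD78.

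Several intronic members had far larger fold changes than the genes that hold them. SNORD11 lies in intron 9 of NOP58, which codes for a core protein of box C/D particles. It had 12, 24 and 19 counts in DMSO, 8 to 20 in the component-treatment libraries, 416, 510 and 489 with lapatinib + THZ531, 241, 372 and 351 with nilotinib + THZ531 and 168, 122 and 191 with 1 μM THZ531. The 3 treated groups lay above all other libraries and did not overlap among themselves. Its log2 fold change was 5.06 ± 0.27, 4.49 ± 0.27 and 3.45 ± 0.27 (edgeR adjusted p = 1.60e-12, 9.96e-12 and 7.74e-10), while NOP58 itself rose by 0.70 ± 0.06, 0.71 ± 0.06 and 0.66 ± 0.06.

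The log2 ratio of SNORD11 to NOP58 counts was -9.97 ± 0.49 (SD, n = 3) in DMSO and -5.59 ± 0.14, -6.19 ± 0.36 and -7.17 ± 0.33 in the 3 treatments, each with an exact permutation p of 0.1. SNORD12B, a box C/D snoRNA in intron 2 of the non-coding host ZFAS1, went from 9, 27 and 22 counts in DMSO to 315, 229 and 272, then 291, 243 and 282, then 243, 215 and 208. Its log2 fold change was 4.19 ± 0.26, 4.17 ± 0.26 and 3.83 ± 0.26 (edgeR adjusted p = 2.04e-11, 2.34e-11 and 1.16e-10), against 0.90, 0.69 and 0.61 for ZFAS1. SNORD12, in the next intron of ZFAS1, rose by 1.77 ± 0.49, 1.25 ± 0.51 and 1.49 ± 0.50.

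SNORD11 and SNORD15B overlap no annotated exon, while SNORD12B overlaps one of ZFAS1. SNORD15B, in intron 5 of the ribosomal protein gene RPS3, went from 9, 4 and 8 counts in DMSO to 53, 70 and 65, then 37, 44 and 58, then 29, 24 and 30. All 9 treated libraries lay above the 12 others. SNORD15B passed the filter only through them. Its log2 fold change was 3.53 ± 0.44, 3.08 ± 0.45 and 2.29 ± 0.46 (SE), while RPS3 rose by 0.78, 0.62 and 0.55. SNORA48 in EIF4A1, which passed in the same way, had log2 fold changes of 2.94 ± 0.54, 2.41 ± 0.55 and 2.46 ± 0.55. EIF4A1, a translation initiation factor that every cell uses, is listed at 0 counts in all 21 libraries, so SNORA48 cannot be set against its host. EIF4A1 overlaps the readthrough gene SENP3-EIF4A1 (0 to 16 counts). How the authors counted reads that fall in 2 genes is not given in the sources used here.

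In RABGGTB, which codes for a subunit of the enzyme that attaches lipid anchors to Rab proteins, 2 members rose while the host fell. Annotated RABGGTB transcripts also have exons over SNORD45C and SNORD45A. SNORD45C, in intron 1, had 16, 33 and 22 counts in DMSO and 117, 79 and 82, then 73, 80 and 92, then 90, 78 and 94 in the 3 treatments. SNORD45A, in intron 2, rose as well, and SNORD45B, in intron 3, was not called, with log2 fold changes of -0.55 ± 0.47, -1.06 ± 0.50 and 0.05 ± 0.44. The log2 fold change of SNORD45C was 2.34 ± 0.31, 2.15 ± 0.31 and 2.20 ± 0.31 (edgeR adjusted p = 1.10e-06, 3.86e-06 and 2.97e-06) and that of SNORD45A was 1.75, 1.38 and 1.27. RABGGTB fell by 1.18, 1.46 and 1.04 on the log2 scale (adjusted p = 1.49e-10, 6.68e-12 and 1.25e-09).

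SNORA2B in KANSL2 and SNORA28 in the translation factor gene EIF5 also lie in falling hosts, but both passed the filter only through treated libraries. SNORA2B had log2 fold changes of 2.08, 1.59 and 1.11 while KANSL2 fell by 0.71, 0.81 and 1.19. SNORA28 had 0.52, 0.03 and 1.20 while EIF5 fell by 1.22, 1.29 and 1.43. SNORD19B was not called, at -1.17, -0.28 and 0.18, while its host GNL3 fell by 1.74, 1.79 and 1.85. SCARNA9 had 0.38, 1.08 and 0.95 (edgeR adjusted p = 0.506, 0.0473 and 0.0803) while its host CEP295 fell by 0.99, 1.27 and 1.09. In the non-coding gene C19orf48P, which fell by 1.66, 1.92 and 1.84, SNORD88B fell with it and SNORD88C did not. SNORD88C had log2 fold changes of 0.97, 0.82 and 0.99 (adjusted p = 0.0275, 0.0621 and 0.0254).

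SNORD88B had 76, 101 and 54 counts in DMSO and 22, 21 and 24, then 17, 16 and 19, then 33, 25 and 21 in the 3 treatments. All 9 treated libraries lay below all DMSO libraries, which was part of the rule that named SNORD88B. It fell by 1.39, 1.77 and 1.22 on the log2 scale (edgeR adjusted p = 2.58e-04, 2.73e-05 and 8.34e-04). Its log2 ratio to C19orf48P was -6.49 ± 0.41 (SD, n = 3) in DMSO and -6.17 ± 0.14, -6.28 ± 0.18 and -5.84 ± 0.30 in the treatments, with exact permutation p of 0.2, 0.6 and 0.2.

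Over the 131 members with a tested host, the median difference between the log2 fold change of a member and that of its host was 0.15, 0.11 and 0.17. It was 0.03, 0.04 and 0.13 over the 109 of them that passed the filter in the DMSO and component libraries, and 0.28, 0.64 and 0.67 over members that overlap no annotated exon of another gene. Of the 131, within 1 log2 unit of the host were 97, 94 and 93 members, above that range 20, 24 and 28, and below it 14, 13 and 10. Across these members the change of the member and that of the host had Pearson's r of 0.10, 0.09 and 0.08 and Spearman's rho of 0.06, -0.01 and 0.10. These describe genes of the same libraries that partly share hosts, and many members have few counts. The difference from the host was larger for members in longer introns, with rho of 0.22, 0.35 and 0.36 over 120 members with an assigned intron. Of the 131 members, 22 passed the filter only through treated libraries, and their median difference was 0.56, 0.61 and 0.74. The correlations, and the medians for members that overlap no exon, were not computed without such members.

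**Figure D3:**
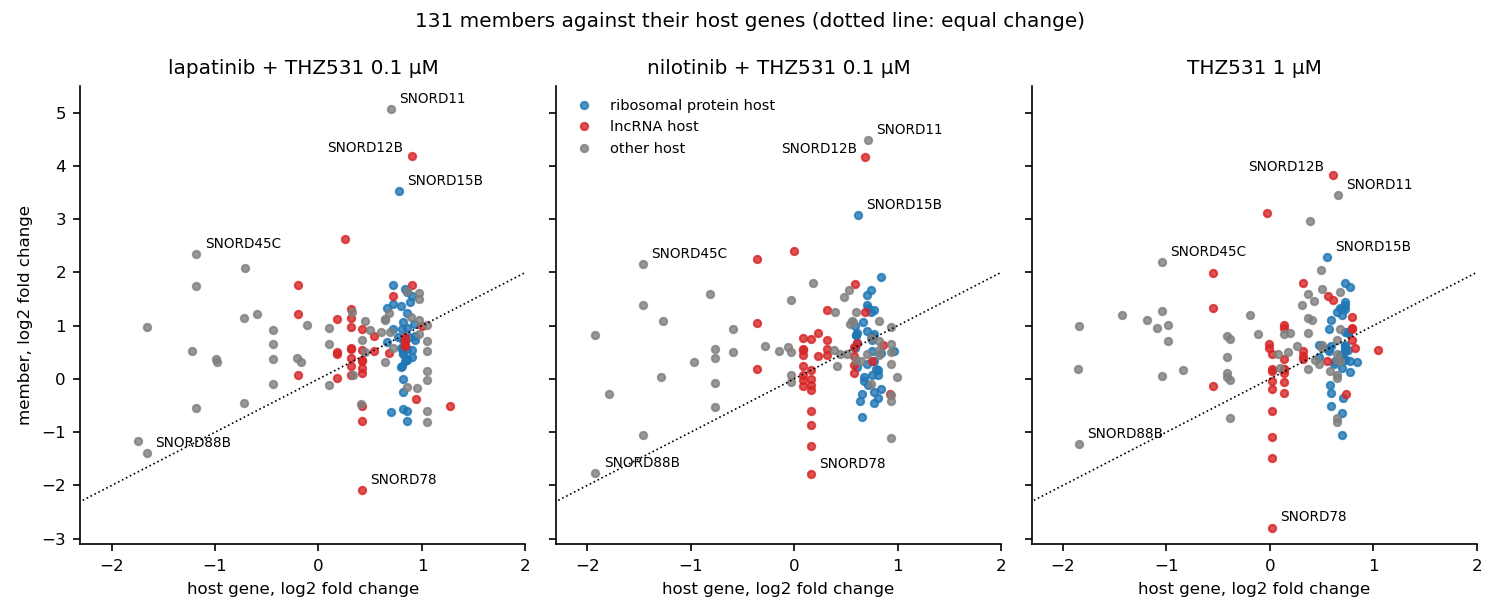
Log2 fold change against DMSO of 131 members (y axis) and of their host genes (x axis) in 3 treatments, 1 point per member colored by the kind of host. Along the dotted line both change equally; SNORD11, SNORD12B, SNORD15B and SNORD45C stand far above it and SNORD78 below.

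The 40 members of ribosomal protein genes lay on both sides of their 23 hosts. The difference from the host ran from -1.64 to 2.75, -1.37 to 2.46 and -1.76 to 1.75, with medians of -0.11, -0.12 and -0.08, and 33, 32 and 34 of the 40 were within 1 log2 unit. Of the 33 that passed in the DMSO and component libraries, 7, 5 and 8 rose past the fold limit and none fell. Of the 15414 tested genes that passed there, 5.83%, 4.54% and 3.74% rose and 22.2%, 21.6% and 19.6% fell. SNORD4A in RPL23A was among those that rose, with 27, 28 and 23 counts in DMSO and 83, 58 and 63, then 70, 51 and 59, then 77, 58 and 83 in the treatments. Its log2 fold change of 1.77, 1.57 and 1.81 stood above that of RPL23A (0.72, 0.70 and 0.73). In RPL7A, which rose by 0.82, 0.81 and 0.70, none of the 3 tested members was called.

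Among genes with several members, the non-coding gene GAS5 had members on both sides of 0. GAS5 rose by 0.42 ± 0.10 with lapatinib + THZ531 (edgeR adjusted p = 6.65e-04) and had log2 fold changes of 0.16 ± 0.10 and 0.02 ± 0.10 in the other two comparisons (adjusted p = 0.147 and 0.867). In their order along the gene, its 9 tested members had log2 fold changes with 1 μM THZ531 of 0.18 (SNORD74), -0.60 (SNORD76), -1.48 (SNORD77), -1.09 (SNORD44), -2.79 (SNORD78), 0.15 (SNORD79), -0.04 (SNORD80), -0.18 (SNORD47) and 0.47 (SNORD81). The 4 called lower, SNORD76, SNORD77, SNORD44 and SNORD78, lie in introns 3, 4, 5 and 6. SNORD74, in intron 1, rose with lapatinib + THZ531 (0.93, adjusted p = 0.0139) and with nilotinib + THZ531 (0.75, adjusted p = 0.0437).

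SNORD78 had 21, 16 and 9 counts in DMSO and 1, 5 and 2, then 4, 4 and 2, then 3, 2 and 0 in the treatments. All treated libraries lay below all DMSO libraries, which was part of the rule that named SNORD78. The component-treatment libraries, with 5 to 17 counts, overlapped with DMSO. It fell by 2.09, 1.79 and 2.79 on the log2 scale, given as a description. With at most 5 counts in any treated library, SNORD78 passed the filter only through the DMSO and component-treatment libraries. That favours members low in the treatments. With nilotinib + THZ531 the call was lost without DMSO replicate 1 and without replicate 3 of that treatment. Its log2 ratio to GAS5 was -7.39 ± 0.66 (SD, n = 3) in DMSO and -9.87 ± 1.03, -9.19 ± 0.34 and -10.27 ± 1.60 in the treatments, each with an exact permutation p of 0.1. Annotated GAS5 transcripts have exons over SNORD78, SNORD44, SNORD76 and SNORD77.

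SNORD44 and SNORD76 were nearer the threshold. SNORD44 fell by 1.26 with nilotinib + THZ531 and by 1.09 with 1 μM THZ531 (edgeR adjusted p = 0.0142 and 0.029), and SNORD76 by 0.61 and 0.60 (0.0228 and 0.026). Without DMSO replicate 2 the adjusted p of SNORD44 was 0.0928 and 0.166, and without any one of nilotinib + THZ531 replicates 1 and 2 or 1 μM THZ531 replicates 2 and 3 it was 0.0723, 0.0504, 0.0722 and 0.0849. Without DMSO replicate 3 the adjusted p of SNORD76 was 0.0552 and 0.0612, and without nilotinib + THZ531 replicates 1 or 2 or 1 μM THZ531 replicates 1 or 2 it was 0.0708, 0.0821, 0.0876 and 0.103. Both calls with 1 μM THZ531 were lost under upper-quartile scaling (adjusted p = 0.0677 and 0.126). By DESeq2 the adjusted p of SNORD76 was 0.0601 and 0.0582.

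**Figure D4:**
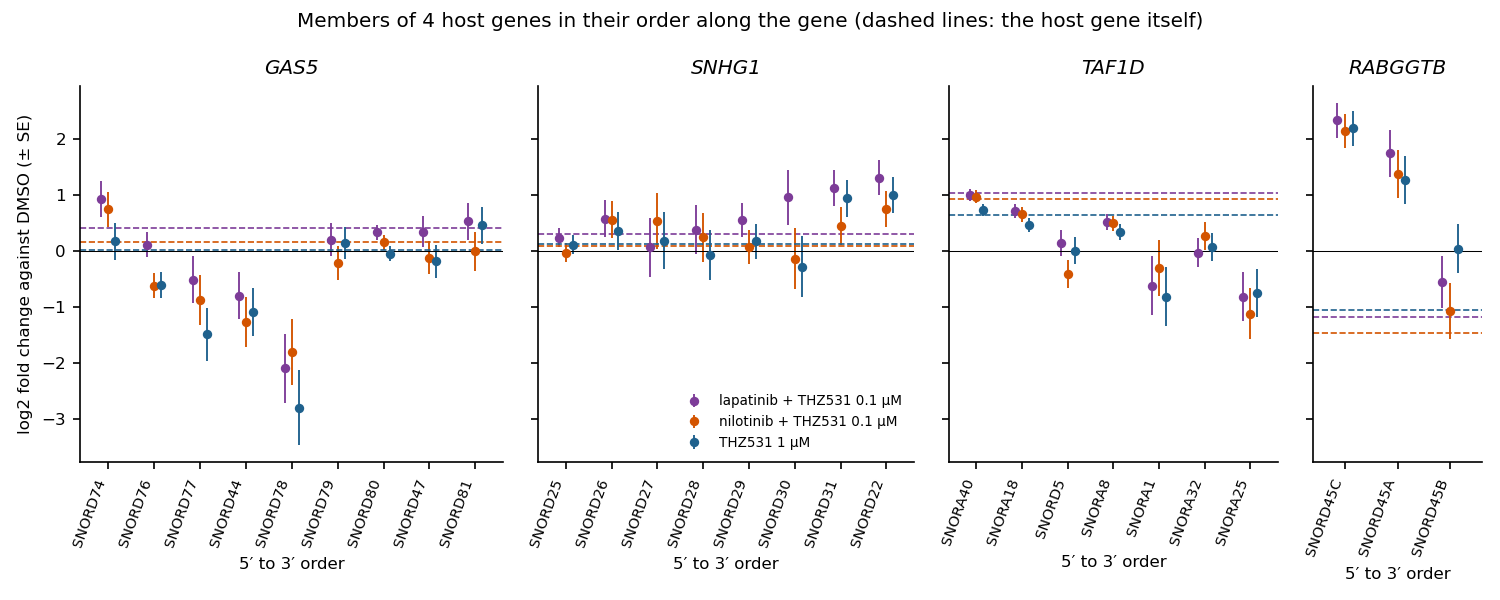
Log2 fold change against DMSO with its SE (y axis) of the tested members of GAS5, SNHG1, TAF1D and RABGGTB in their 5′ to 3′ order (x axis), for 3 treatments; dashed lines give the host gene. In GAS5 the lowest values were those of SNORD78, and SNORD79 to SNORD81 lay between -0.21 and 0.54, and in RABGGTB SNORD45C and SNORD45A lay above 0 while the host lay below.

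In SNHG1, another non-coding host, the members called higher were the last along the gene. SNORD22 had log2 fold changes of 1.32, 0.76 and 1.01 (edgeR adjusted p = 8.88e-04, 0.0397 and 0.00777). SNORD31 had 1.14, 0.45 and 0.95 (0.00389, 0.241 and 0.0138). The other 6 tested members were not called in any of the 3 comparisons. SNHG1 itself rose by 0.31 with lapatinib + THZ531 (adjusted p = 1.76e-04) and had log2 fold changes of 0.09 and 0.14 (0.207 and 0.0552) in the other comparisons.

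For other hosts with at least 3 tested members, differences between members were not tested, and the counts include members that passed the filter only through treated libraries (SNORA51, SNORD110 and SNORD56 in NOP56). In NOP56, which rose by 0.97, 0.82 and 0.37, the 4 members had log2 fold changes from 0.85 to 1.61, 0.45 to 1.09 and 0.18 to 1.59. With no fold limit 3, 1 and 2 of them rose. Counts for the hosts that follow also have no fold limit, at which 34.3%, 33.7% and 33.1% of all tested genes rose. In the non-coding SNHG12, which rose by 0.84, 0.58 and 0.80, 1, 0 and 4 of 4 members rose. EIF4A2 fell by 0.44, 0.76 and 0.41 while 1, 0 and 1 of its 4 members rose.

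SNHG17 fell by 0.20, 0.36 and 0.55 and its member SNORA71B rose by 1.22, 1.05 and 1.34. Its member SNORA71A was not called, with log2 fold changes of 0.07, 0.19 and -0.14. SNORA71D, with 1.77, 2.25 and 1.98, passed the filter only through treated libraries, as did SNORA71A. In RPL3, which rose, 1, 1 and 1 of 3 members rose in the 3 comparisons with no fold limit. In RPL13A, which also rose, these counts were 1, 0 and 1 of 3. In HSPA8, a chaperone gene, 1 of 3 members rose with lapatinib + THZ531 and none in the other comparisons.

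TAF1D, a subunit of the RNA polymerase I factor SL1, holds 3 of the 6 members with the highest mean CPM. Per kilobase of gene, DMSO libraries had 51.6 ± 5.14 CPM (SD, n = 3) for SNORA40, 26.1 ± 0.496 for SNORA18 and 11.0 ± 1.61 for SNORA8, against 1.46 ± 0.469 for SNORD3A, 4.85 ± 0.396 for SNORD17 and 1.85 ± 0.66 for SNORD11. SNORA40 had 813, 684 and 847 counts in DMSO and 1250, 1152 and 1188, then 1328, 1251 and 1005, then 1117, 972 and 1028 in the treatments. SNORA40 was higher in all 9 treated libraries than in DMSO.

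SNORA40 rose by 1.01 ± 0.11, 0.98 ± 0.11 and 0.74 ± 0.11 and TAF1D by 1.05 ± 0.08, 0.94 ± 0.08 and 0.65 ± 0.08. Its log2 ratio to TAF1D was -2.28 ± 0.19 (SD, n = 3) in DMSO and -2.33 ± 0.09, -2.24 ± 0.30 and -2.19 ± 0.02 in the treatments, differences within the spread of DMSO. SNORA18 and SNORA8 rose by less, by 0.72, 0.66 and 0.47 and by 0.52, 0.50 and 0.35. Under mitochondrial scaling SNORA40 was no longer called with lapatinib + THZ531 (0.32, edgeR adjusted p = 0.0684) or 1 μM THZ531 (0.19, adjusted p = 0.311). SNORA18 was then at 0.04 in both combinations (adjusted p = 0.859 and 0.845) and changed sign with 1 μM THZ531 (-0.08). SNORA8 changed sign in all 3 comparisons (-0.17, -0.12 and -0.20). The other TAF1D members SNORD5, SNORA1, SNORA32 and SNORA25 were not called higher, and SNORA25 was called lower with nilotinib + THZ531 only (-1.11, adjusted p = 0.0332), a call lost without DMSO replicate 1 (adjusted p = 0.137), DMSO replicate 2 (0.0762), or nilotinib + THZ531 replicate 1 (0.0511) or 2 (0.129). SNORD17, in intron 1 of the sorting nexin gene SNX5, rose by 0.88 ± 0.14, 1.03 ± 0.14 and 1.11 ± 0.14, against 0.60, 0.54 and 0.41 for SNX5. Under mitochondrial scaling it was not called in the combinations (0.19 and 0.39, edgeR adjusted p = 0.388 and 0.0635).

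Each combination was then compared with 1 μM THZ531. With lapatinib + THZ531, 4 were called past the fold limit (2.72%, against 3.14% of all tested genes), a share near that of all genes. These were SNORD11, SNORD112, SNORD15B and SNORA80B, all but SNORD11 among those that passed the filter only through treated libraries. With nilotinib + THZ531 1 was called (0.68%, against 2.56%). As most members have few counts, these numbers do not show that a combination matched the higher dose. SNORD11 was higher with lapatinib + THZ531 than with 1 μM THZ531 by 1.61 (edgeR adjusted p = 1.17e-05) and with nilotinib + THZ531 by 1.04 (adjusted p = 0.00103), whereas its host NOP58 differed by 0.05 and 0.06 (adjusted p = 0.586 and 0.564).

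SNORD15B was higher with lapatinib + THZ531 than with 1 μM THZ531 by 1.24, given as a description since it passed the filter only through treated libraries. The call was lost without replicate 2 of the combination and without replicate 2 of 1 μM THZ531. SNORD3A differed by -0.13 and -0.55 between the combinations and 1 μM THZ531 (adjusted p = 0.77 and 0.143), and SCARNA2 by -0.32 and -0.64 (0.712 and 0.456). For these members a difference was not detectable at this depth.

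The proteins that build and process snoRNA particles were described from a list of 29 genes, 28 of them tested. None was called with 0.1 μM THZ531, lapatinib or nilotinib alone (6.09%, 0.312% and 0.343% of all tested genes). Past the fold limit none rose in the other 3 comparisons (7.9%, 6.54% and 5.77% of all tested genes). At that limit 3, 3 and 4 of the 28 fell (21.3%, 20.8% and 18.9% of all tested genes). With no fold limit 10 of 28 rose in each and 12, 12 and 13 fell. Over all tested genes 34.3%, 33.7% and 33.1% rose and 37.8%, 37.3% and 36.8% fell with no fold limit, so without that limit the list lay near the background. The list's medians were -0.06, 0.02 and -0.22, against -0.01 over all genes in each. The 4 core proteins of box C/D particles all rose. FBL, the methyltransferase, rose by 0.89 ± 0.07, 0.81 ± 0.07 and 0.49 ± 0.07, NOP56 by 0.97, 0.82 and 0.37, NOP58 by 0.70, 0.71 and 0.66, and SNU13 by 0.78, 0.75 and 0.51 (edgeR adjusted p at most 5.04e-04). The rises of FBL, NOP56 and SNU13 with 1 μM THZ531 are smaller than the shift of all genes under mitochondrial scaling, so their direction there depends on the scaling.

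Of the box H/ACA core proteins NHP2 rose (0.71, 0.69 and 0.60), GAR1 fell (by 0.26, 0.40 and 0.55), DKC1, the pseudouridine synthase, was called only with 1 μM THZ531 (-0.26, edgeR adjusted p = 9.35e-05), and NOP10 was not called. The largest falls of the list were those of TOE1, a 3′ exonuclease of small nuclear and Cajal body RNAs (-2.12 ± 0.09, -2.43 ± 0.09 and -2.29 ± 0.09), and COIL, the scaffold of Cajal bodies (-1.82 ± 0.13, -1.66 ± 0.12 and -1.89 ± 0.13). TGS1, which forms the trimethylguanosine cap of U3 and other RNAs, fell by 1.14, 1.03 and 1.40. DBR1, the enzyme that opens intron lariats, fell by 0.54, 0.60 and 1.05. Outside the core proteins, NAF1, an assembly factor of box H/ACA particles, had log2 fold changes of 0.77, 0.78 and 0.14 (the last not called) and PIH1D1 of the R2TP complex rose by 0.72, 0.70 and 0.66.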

How the data were processed

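Hs578T cells were sampled after 8 h of treatment, and unstranded poly(A)-selected libraries were read as pairs of 100-base reads. The authors aligned filtered reads to GRCh38 with HISAT2 (2.1.0 in the submitters' processing notes) and deposited raw featureCounts counts per gene. The annotation, the counting unit and the treatment of reads in overlapping genes or at several places are not given in the sources used here.

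Genes were named by Entrez ID from RefSeq. Hosts were taken as the shortest GENCODE v44 gene on the same strand that holds the member and is in the table; 390 of the 412 strands came from the member's own gene model and 22 from the containing gene. Counts were filtered with filterByExpr, scaled by TMM and fitted over all 21 libraries in edgeR 4.0.16 (R 4.3.3) with glmQLFit and glmQLFTest, with Benjamini-Hochberg adjustment over 16036 genes; the procedure was tested on simulated counts. DESeq2 1.42.0 served as an alternative. Host ratios are log2 of counts plus 0.5 over host counts plus 0.5, compared by exact permutation tests. No pair of replicates matched within counting error (chi-square per degree of freedom at least 7.75).

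Members and lists were chosen with earlier results of these data known. The members named are the 6 with the highest mean CPM, the 5 largest rises and 5 largest falls per treatment with an adjusted p under 0.05 and all treated libraries beyond DMSO, the 3 smallest adjusted p of each combination against 1 μM THZ531, and members of hosts with at least 3. SNORD3B-1, SNORD3B-2, SNORD3C, SNORA7B, SNORD116-4, SNORD116-21, SNORA50C, SNORD104, SNORD12, SNORA2B, SNORA28, SNORD19B, SCARNA9, SNORD88C, SNORA80B, NAF1, PIH1D1, TGS1 and DBR1 were added after their values were seen. The alternatives were other scalings, other count filters, DESeq2, a replicate block, fits of only the groups compared, halved counts and leaving out each library. The sequence of 1 member and the values of 1 host gene are not reported here.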

Additional observations from a re-analysis of the deposited data

Results flagged for a closer look

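Several members differed between a combination and 1 μM THZ531 by the edgeR test of that difference. With lapatinib + THZ531 against 1 μM THZ531 these were SNORD11 (log2 fold change 1.61), SNORD112 (-1.80), SNORD15B (1.24), SNORA80B (-1.87) and SNORD76 (0.72). With nilotinib + THZ531 against 1 μM THZ531 they were SNORD11 (1.04) and SNORA61 (-0.47).

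SNORD112, in the non-coding gene MEG8 and opposite RTL1, had 3, 5 and 2 counts with lapatinib + THZ531, 9, 9 and 19 with 1 μM THZ531 and 4, 5 and 4 in DMSO. The call was lost without replicate 3 of the combination and without replicate 3 of 1 μM THZ531. With unstranded counts, reads of SNORD112 and RTL1 cannot be told apart.

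SNORA80B, in intron 1 of ODC1, had 12, 5 and 3 counts with lapatinib + THZ531 and 31, 27 and 19 with 1 μM THZ531, against 8, 3 and 1 in DMSO. SNORD76 and SNORA61 had adjusted p-values over 0.05 in fits without single libraries, SNORD76 of 0.126 without lapatinib + THZ531 replicate 2, 0.0844 and 0.107 without 1 μM THZ531 replicates 1 and 2, and SNORA61 of 0.0724 and 0.128 without nilotinib + THZ531 replicates 2 and 3 and 0.0833 and 0.145 without 1 μM THZ531 replicates 1 and 2. SNORD112, SNORA80B and SNORD15B passed the count filter only through libraries of the combinations or 1 μM THZ531. The p-values of their calls are therefore left out and their differences are a description.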

How the results depend on the processing

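Results are given in the order lapatinib + THZ531, nilotinib + THZ531, 1 μM THZ531, each against DMSO; where a cause is not part of the setting itself it was not tested. Members called higher (46, 40, 47) were 28 and 22 in the combinations under library size alone, 19, 17 and 20 under mitochondrial scaling, and 13, 6 and 9 of the 58 members left with at least 10 counts in every library. Members called lower (2, 4, 4) were 5 in the first under library size alone, 10, 8 and 9 under mitochondrial scaling, 5 in the first with no filter, 1, 1 and 1 with at least 10 counts, 1, 2 and 2 with halved counts, and 1 and 2 in the combinations with only the groups compared. The members' median was 0.79 and 0.62 in the combinations with RLE factors, 0.42, 0.27 and 0.38 under library size alone, 0.90, 0.71 and 0.84 under upper-quartile scaling, 0.07, -0.05 and 0.10 under mitochondrial scaling, 0.58 and 0.38 in the combinations with no filter, 0.67 and 0.50 with at least 10 counts, 0.79, 0.61 and 0.77 with halved counts, 0.95, 1.05 and 1.01 over the 33 members that overlap no exon of another gene, and 0.78 and 0.64 in the combinations over the 19 members with at least 50 counts. The median difference from the host was -0.01 in the first with at least 10 counts, 0.64 and 0.67 in the last 2 for members that overlap no exon, and -0.06 and -0.01 in the first and last for members with at least 50 counts. Members that differed between a combination and 1 μM THZ531 (4 and 1) were 0 and 0 with at least 10 counts, and 0 in the second under upper-quartile and under mitochondrial scaling. Over the 115 members that pass the filter in the DMSO and component libraries, a choice made after seeing the data, 28, 20 and 28 were higher and 2, 4 and 4 lower. Their median was 0.61, 0.47 and 0.54. The difference from the host was 0.03, 0.04 and 0.13 over the 109 of them with a tested host.

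Leaving out single libraries gave 37 to 52, 28 to 38 and 40 to 51 members higher and 3 to 4, 3 to 6 and 2 to 5 lower. The lower count was 4 in the first without DMSO replicate 1 or 3 or replicate 3 of the combination, and 2 in the last without DMSO replicate 2. Medians ranged over 0.66 to 0.85, 0.51 to 0.67 and 0.60 to 0.82, and host differences over 0.06 to 0.24, 0.05 to 0.18 and 0.15 to 0.35 (the highest without DMSO replicate 2). Against 1 μM THZ531 the counts ranged over 2 to 6 and 0 to 2, with 2 in the first without lapatinib + THZ531 replicate 2 or 3 or 1 μM THZ531 replicate 2, and 0 in the second without nilotinib + THZ531 replicate 3. For the component treatments each of these fits called 0.

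Same-numbered libraries had a mean correlation of deviations of 0.115 (-0.718 to 0.806), against -0.0541 (-0.735 to 0.731) for different numbers. The deviations were taken from group means, so these means are not independent, and whether the numbers pair the libraries was not settled. With a replicate block 46, 37 and 47 members were higher and 2, 4 and 4 lower. Of 833 values of the named members under the alternatives, 753 kept their direction and side of the threshold, 76 kept their direction and lost the threshold, and 4 turned sign, all under mitochondrial scaling (SNORA18 -0.08 with 1 μM THZ531, SNORA8 -0.17, -0.12 and -0.20). Alternatives were computed for the members named by the rule for the highest, the largest changes and the differences from 1 μM THZ531, not for the others.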
